A study of Mus musculus with 34 samples.

Results

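The proteasome is the multi-subunit protease that degrades ubiquitin-tagged proteins. Its genes were followed here in mouse liver tumors and livers driven by MYC, with and without changes in Arid1a, which encodes a subunit of the SWI/SNF chromatin-remodelling complex. Members were all protein-coding rows whose symbol begins with Psma to Psmg followed by a digit. This rule found 50 of 46528 genes in the mixed-strain tumor table, 49 of 16140 in the FVB tumor table and 47 of 14074 in the Rag1-/- liver table. Psmb11, the thymus-specific beta subunit, was listed in the mixed-strain table alone, and Psma8, Psmb11 and Psmg4 were not listed in the Rag1-/- table. One symbol the rule takes in, Psmc3ip, is a meiotic recombination factor and not a proteasome subunit, and is kept apart in class counts.

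RNA was sequenced from 34 libraries. All mice carried LAP-tta and TRE-MYC, in which a liver promoter drives the tetracycline transactivator that switches on MYC when doxycycline is withdrawn. Mixed-strain tumors (C57/B6, 129 and FVB mix, about 90 days old) came from 8 WT libraries, which carry Arid1a fl/fl without Cre, and 8 Het libraries, which carry Arid1a fl/+ with Alb-cre. FVB tumors came from 4 WT libraries at about 55 days, 4 Het libraries (Arid1a fl/+ with Alb-cre) at about 70 days and 4 Homo libraries (Arid1a fl/fl with Alb-cre) at about 100 days. Alb-cre is expressed from the albumin promoter, so Arid1a is deleted in cells of the hepatocyte lineage, and other cells of the tumor keep it. Rag1-/- mice, which lack mature B and T lymphocytes, were about 42 days old, carried wild-type Arid1a and were sampled 14 days after adenovirus carrying Cre (3 ad-Cre libraries) or ARID1A (3 ad-ARID1A libraries). The sample titles and column names place the ad-ARID1A libraries in that group, but the sample descriptions give them ad-Cre names. They were assigned by column name, and all liver comparisons rest on this. Cre and genotype cannot be told apart where tumors are compared with WT, since no WT tumor carries Cre. FVB Het and Homo tumors both carry Alb-cre. Age and genotype cannot be told apart in any FVB comparison. The labels do not say whether libraries came from separate animals, so p-values measure the spread between libraries only.

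Depth, read from the spacing of low values, was 2.28 to 5.28 M reads per mixed-strain library, 6.63 to 12.03 M per FVB library and 8.72 to 10.63 M per Rag1-/- library. The authors normalized the FVB and Rag1-/- values, so those depths may be scaled library sizes and not read counts. Arid1a itself was 0.41 ± 0.09 (log2 fold change and SE) lower in mixed Het than in WT, with an adjusted p of 0.083, and the libraries overlapped (7.97 to 8.37 in Het, 8.30 to 8.94 in WT, as log2(CPM + 0.5)). In FVB tumors Arid1a lay between 7.73 and 8.28 in WT, 7.53 and 8.19 in Het, and 7.43 and 8.0 in Homo (log2 CPM), and in Rag1-/- livers between 6.83 and 6.86 with ad-Cre and 6.79 and 7.22 with ad-ARID1A. Counts over the whole gene include exons outside the floxed part and, in the livers, the deposited columns do not separate viral from endogenous transcripts, so this row does not check the labels. Myc differed by -1.4 ± 0.38 in the livers with ad-ARID1A (adjusted p 0.175), with no overlap, and by -0.19 to 0.04 in the tumor comparisons. Hepatocyte markers were abundant: the summed level of 7 genes was 2590 to 9050 CPM in the mixed tumors, 4220 to 12000 in FVB tumors and 68500 to 82900 in the livers.

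The core particle is a barrel of 2 kinds of ring, with alpha subunits (Psma genes) gating the ends and beta subunits (Psmb genes) carrying the proteolytic sites. In cells exposed to interferon, the 3 catalytic beta subunits Psmb5, Psmb6 and Psmb7 are replaced by Psmb8, Psmb9 and Psmb10, which form the immunoproteasome and favour peptides for class I antigen presentation. The regulatory particle (Psmc ATPases and Psmd non-ATPases) recognises, unfolds and feeds substrates, Psme1 and Psme2 form an interferon-inducible activator, and Psmg genes with Psmd5, Psmd9 and Psmd10 help to assemble the particle. Psma8 is an alpha subunit known from the testis.

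Short stretches upstream of the gene starts of immune and constitutive catalytic subunits are shown as background. The immune subunits Psmb8 and Psmb9 had a wider spread between tumors than the constitutive subunits. They also lay at lower levels, and their spread was not compared with genes of like level. Any link between the stretches and that spread was not tested. The stretches come from RefSeq promoters on GRCm38.p6, and 42 of 50 member symbols had an entry. The capitals mark a match, on either strand, to the interferon-gamma activated site letters TTCNNNGAA in Psmb8, and to the antioxidant response element core TGANNNNGC in Psmb5, Psmb6 and Psmb9:
Psmb8 (chr17:34198088-34198116, plus strand): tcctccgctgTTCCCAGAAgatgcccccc
Psmb9 (chr17:34187372-34187400, minus strand): ccttgcgcgaTGATGGGGCggggcctcag
Psmb5 (chr14:54618024-54618052, minus strand): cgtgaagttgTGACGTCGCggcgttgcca
Psmb6 (chr11:70525338-70525356, plus strand): ctaaagagagTGACGGAGC
The Psmb8 and Psmb9 stretches also lie in an exon of another transcript of the same gene. In the 250 bases upstream of the start, TTCNNNGAA was held by 2 of 45 member promoters (Psmb8 and Psmg1), against 7.02% of 32851 promoters. TGANNNNGC was held by 18 of 45, or 40%, against 35.2%. The interferon-stimulated response element core was held by 3 of 45 against 2.98%, in Psmb3, Psmd4 and Psmd9. The sequence CCAAT was held by 15 of 45 against 33.8%. These shares are a description of letters in a window, not of sites in use.

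No member passed an adjusted p of 0.05 in any of the 5 comparisons (limma, Benjamini-Hochberg over all genes of a table). All genes were called in 0.16% of cases in mixed Het against WT, 0.0248% in FVB Het against WT, 0.0434% in FVB Homo against WT, 0% in FVB Homo against Het and 0.32% in ad-ARID1A against ad-Cre, so a count of 0 among about 50 genes is near the background. At an unadjusted p under 0.05 the members numbered 12 of 49, 6 of 49, 3 of 49, 1 of 49 and 2 of 47 in the same order, against 15.8%, 14.2%, 10%, 3.86% and 12.5% of all genes. The plot of fold changes by gene shows most members within a narrow band around 0, with Psmb8, Psmb9, Psma8, Psmd9 and Psmg3 outside it in at least 1 comparison. The 3 FVB comparisons share libraries, so their values are given side by side.

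**Figure D1:**
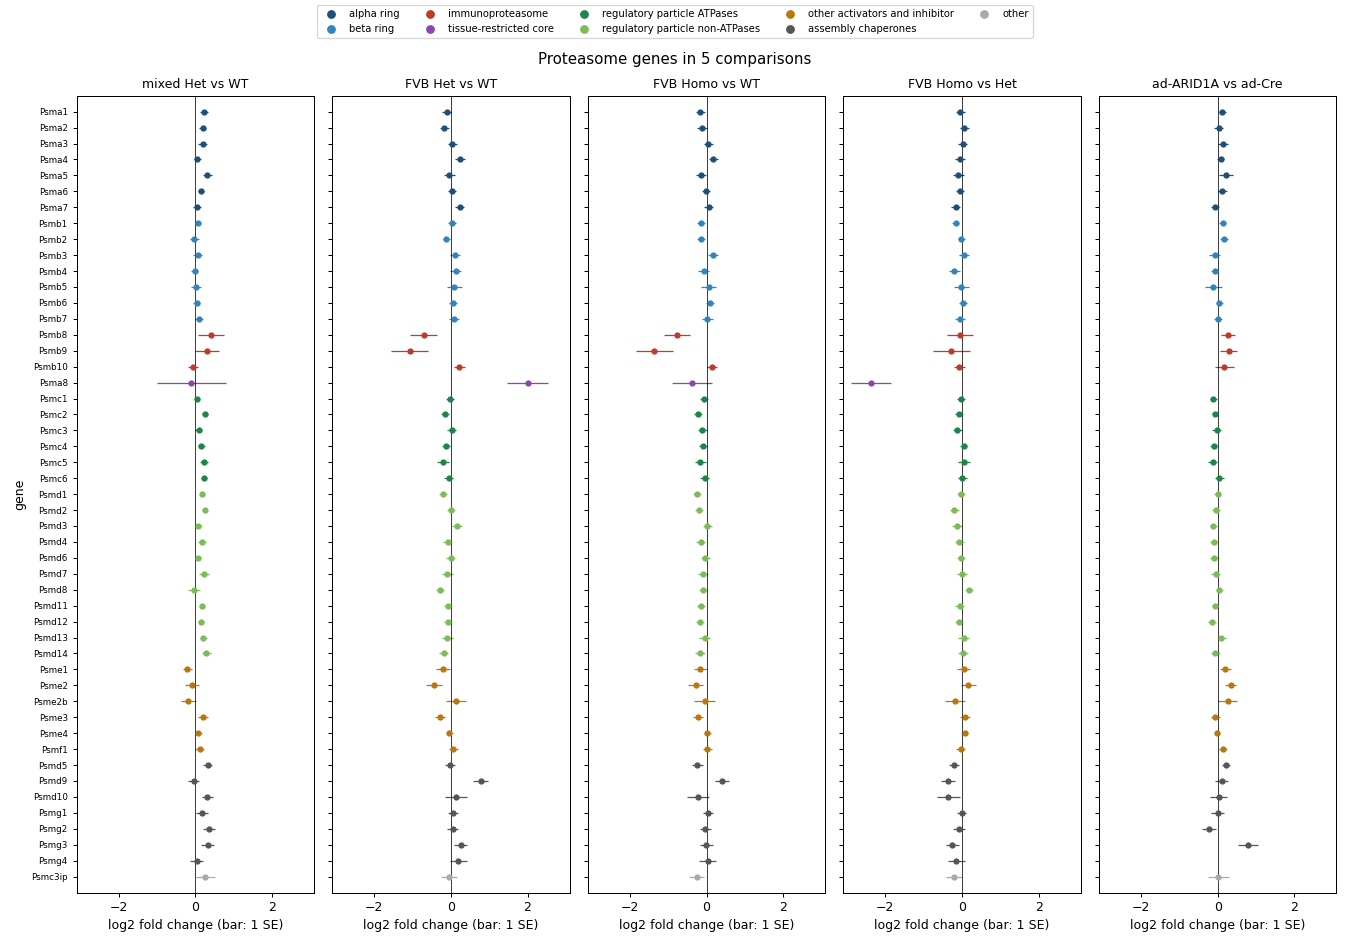
Log2 fold change (x axis; point, with a bar of 1 standard error) of each proteasome gene (y axis, coloured by class) in the 5 comparisons, 1 per panel. Most genes lie near 0; Psma8 reaches 2.0 in FVB Het against WT and -2.38 in FVB Homo against Het, and no gene passed the adjusted threshold.

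Most constitutive core and regulatory particle genes had a narrower spread within groups than the median of all genes tested in the range of levels they spanned. Genes were not matched by level within that range. In the mixed tumors the median within-group SD was 0.169 for the 14 core genes and 0.146 for the 17 regulatory particle genes on the log2 scale, against 0.27 for the 4659 genes in the same range of levels, and 30 of these 31 subunit genes lay below that median. In FVB tumors 29 of the 31 lay below the median of 0.2, and in Rag1-/- livers 23 of the 31 lay below 0.141. Per kilobase of the principal transcript, Psmb6 (the caspase-like site) was the highest member in the mixed tumors, at 145 CPM per kb, and in the livers, at 64.1, while Psma7 led in FVB tumors at 98.6. Apart from Psmb11, the lowest members were Psma8, Psmb9 and Psmb8 in both tumor tables, at 1.77 to 5.17 CPM per kb.

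In the mixed tumors 40 of 49 members had a higher mean in Het, with a median log2 fold change of 0.15, against 56.1% of all genes and a median of 0.046. All 12 members at an unadjusted p under 0.05 were higher in Het, where 8.29% of all genes were both. That count of members depended on the libraries and the fit. It was 6 without WT 2, WT 6 or Het 4 and with a replicate block, 7 with libraries centred on their medians, and 18 without WT 1. The median of the members ran from 0.11 without WT 2 to 0.17 without WT 1. Markers of several cell types had lower means in Het, none of them past the threshold. Neutrophil markers were lower in 6 of 6 genes tested (median -2.13, 4 at an unadjusted p under 0.05) and summed to 11.3 to 149 CPM in WT and 5.69 to 35.6 in Het. Hepatocyte markers were lower in 7 of 7 (median -0.33, 1 at an unadjusted p under 0.05). They summed to 4190 to 9050 CPM in WT (median 5020) and 2590 to 5710 CPM in Het (median 4980), so the median sums were close. Macrophage and Kupffer cell markers were lower in 7 of 9 (median -0.30, 4 at an unadjusted p under 0.05), with sums of 474 to 1240 and 402 to 900 CPM. Stellate cell and fibroblast markers were lower in 4 of 5 (median -0.30, 2 at an unadjusted p under 0.05), with sums of 101 to 525 and 106 to 427 CPM. Endothelial cell markers were lower in 3 of 5 (median -0.25, 2 at an unadjusted p under 0.05), with sums of 133 to 369 and 98.4 to 287 CPM. Other lists went the other way, also with no gene past the threshold. Leukocyte markers were higher in Het in 5 of 5 (median 0.28), with sums of 114 to 229 and 108 to 284 CPM. T and NK cell markers were higher in 8 of 11 tested (median 0.09) and dendritic cell markers in 3 of 5 (median 0.045). The part of all these cells in the difference of the members was not tested. The regulatory particle held 6 of the 12 members and was higher in 16 of 17 genes, with a median of 0.18. Psmd2, which binds ubiquitin receptors and substrates at the base, was 7.71, 7.99 and 8.10 (lowest, median and highest log2(CPM + 0.5)) in WT and 8.06, 8.22 and 8.26 in Het. The ranges overlapped slightly, and the log2 fold change was 0.24 ± 0.07 (SE) with an adjusted p of 0.145; Psmd2 was chosen for its p after its values were seen. Psmc2, an ATPase of the base, was 6.71, 6.89 and 7.06 in WT and 6.99, 7.14 and 7.24 in Het, a difference of 0.25 ± 0.08 with an adjusted p of 0.164. Psmd14, the deubiquitinating subunit of the lid, had a difference of 0.29 ± 0.13, and Psmd8 one of -0.03 ± 0.16. The other end of the ATPases was Psmc1 at 0.04 ± 0.08.

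The alpha ring was higher in Het in 7 of 7 genes, with a median of 0.19, from Psma7 at 0.05 ± 0.10 to Psma5 at 0.31 ± 0.12 (adjusted p 0.235). Psma5 was 5.91, 6.57 and 6.87 in WT and 6.68, 6.83 and 7.0 in Het, and the lowest value belonged to WT library 2. The beta ring had a median of 0.04, with none of 7 genes at an unadjusted p under 0.05. The catalytic genes differed little: Psmb5 (chymotrypsin-like site) by 0.01 ± 0.12, Psmb6 by 0.04 ± 0.09 and Psmb7 (trypsin-like site) by 0.09 ± 0.09, while the lowest was Psmb2 at -0.03 ± 0.11. Assembly chaperones were higher in 6 of 7 genes, with a median of 0.31. Psmg2 was 5.08, 5.96 and 6.34 in WT and 5.81, 6.31 and 6.53 in Het, a difference of 0.36 ± 0.16 (adjusted p 0.282), and Psmd9 differed by -0.04 ± 0.15. Among activators, Psme3 differed by 0.21 ± 0.13, Psme2 by -0.08 ± 0.18 and Psme1 by -0.21 ± 0.12, and Psme1 was highest in WT libraries 2 and 7, at 7.37 and 7.41. Psme2b is a near copy of Psme2, so reads may be split between them.

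**Figure D2:**
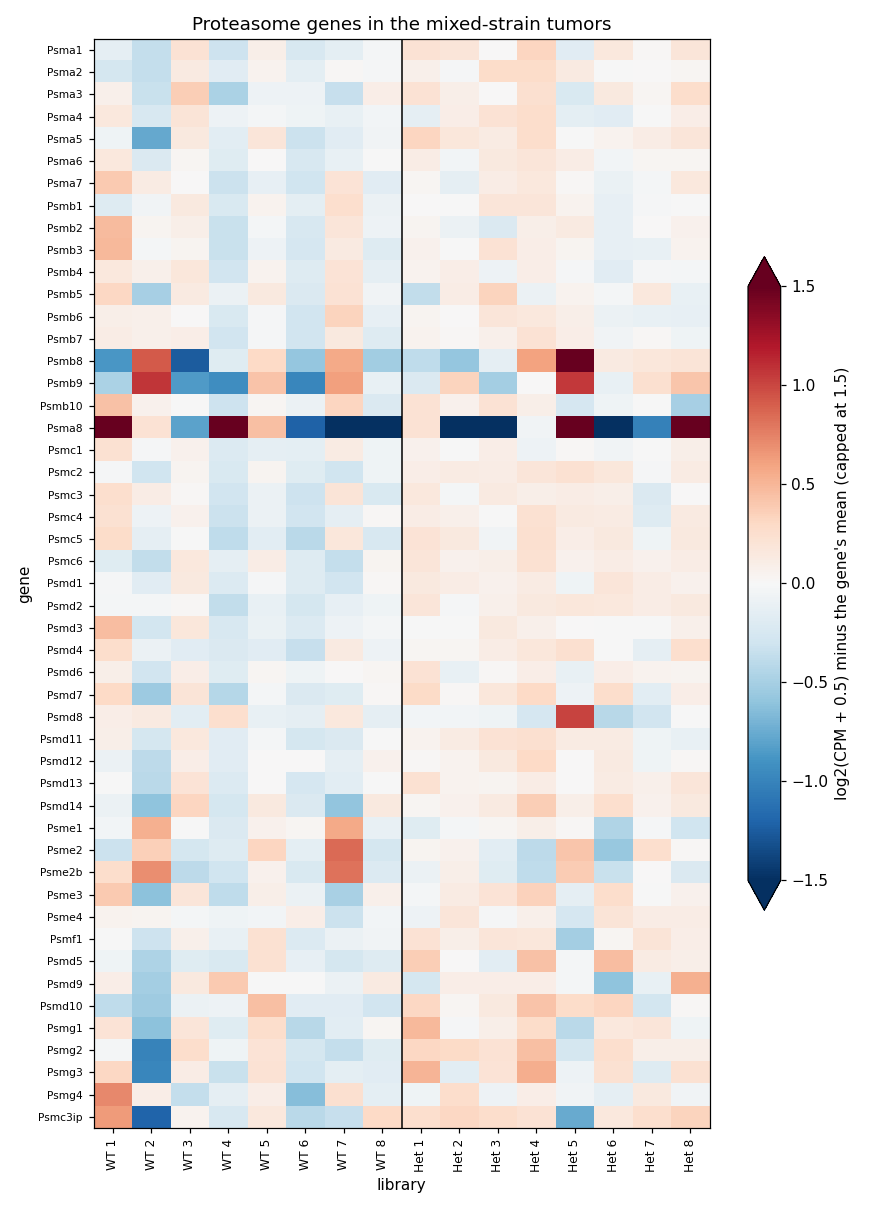
Log2(CPM + 0.5) of each proteasome gene (rows) minus its mean, in the 16 mixed-strain tumor libraries (columns, with WT left of the line), colours capped at 1.5. Psmb8 and Psmb9 are high in WT 2 and Het 5, Psmd8 stands out in Het 5 at 7.90, and Psma8 ranges from -1.0 to 4.41 in WT and from -0.54 to 4.88 in Het.

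In FVB tumors 23 of 49 members were higher in Het than in WT, with a median of -0.02 against 0.02 for all genes. In Homo against WT 14 of 49 were higher, with a median of -0.10 against -0.02, and in Homo against Het 14 of 49, with -0.05 against -0.04. Groups did not overlap for 3 members in Het against WT, where 6.88% of all genes did the same, for none in Homo against WT (4.07%) and for none in Homo against Het (2.67%). With libraries centred on their medians the counts of higher members became 25, 23 and 25 of 49. With libraries weighted by their fit, 6 members passed in Het against WT (Psmd9, Psma8, Psmb9, Psme3, Psmb8 and Psmd8), as did 2287 of all 16140 genes, or 14.2%. Psme3 is named in that comparison after its values were seen. The regulatory particle was higher in 3 of 17 genes in Het and in 1 of 17 in Homo, with medians of -0.08 and -0.11, and the beta ring was higher in 6 of 7 and 4 of 7.

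Psmd9, an assembly chaperone of the regulatory particle base, had the smallest p in FVB Het against WT. It was 5.01, 5.14, 4.92 and 5.33 (log2 CPM) in WT libraries 1 to 4, 5.93, 6.05, 5.96 and 5.55 in Het, and 5.94, 5.21, 5.76 and 5.10 in Homo. Every Het library was above every WT library, and Homo spanned both. The difference was 0.77 ± 0.19 in Het (adjusted p 0.101), 0.40 ± 0.19 in Homo against WT (0.499) and -0.37 ± 0.19 in Homo against Het (1). The value in Homo against WT was 0.26 without Homo 1, and that in Homo against Het was -0.24 without Homo 4. The lincRNA Gm26745 covers 25.5% of the exon bases of Psmd9 on the opposite strand, and nothing in the labels says whether counting used strand. Gm26745 itself was at 0 in 15 of the 16 mixed libraries, at 0.223 CPM in Het 1, and not listed in the FVB table. The mixed tumors gave -0.04 for the same contrast, and the difference between strains was not tested because the tables were normalized separately.

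Psma8 had the largest fold change of any member. In FVB tumors it was 1.44, 0.22, 0.59 and 1.67 in WT, 2.38, 3.38, 3.40 and 2.76 in Het, and 0, 2.42, 0 and 0 in Homo, where 0 stands for 1 CPM or less. Het libraries lay above all WT libraries and above 3 of the 4 Homo libraries. On this floored scale the differences were 2.0 ± 0.53 in Het against WT (adjusted p 0.120), -0.38 ± 0.53 in Homo against WT (0.867) and -2.38 ± 0.53 in Homo against Het (1). Without Homo 2, the 1 Homo library above 0, they were -0.98 in Homo against WT and -2.98 in Homo against Het, the latter with an adjusted p of 0.0722. Leaving out other single libraries gave -0.63 to -0.14 in Homo against WT. In the mixed tumors Psma8 was -1.0, 0.93 and 4.41 in WT and -0.54, 0.69 and 4.88 in Het (lowest, median and highest), a difference of -0.11 ± 0.90. Both genotypes held tumors with high and tumors with very low levels. No read was found in WT libraries 7 and 8, and a count of 0 allows up to 3 reads, or 0.568 to 1.32 CPM over the mixed libraries. Psmb11 had no read in any of the 16.

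Psmd8, a lid subunit, was 5.93, 5.83, 5.87 and 6.06 in FVB WT and 5.66, 5.64, 5.50 and 5.78 in Het, with every Het library below every WT library, and 5.63, 5.92, 5.88 and 5.85 in Homo. The difference was -0.28 ± 0.11 in Het against WT, with an adjusted p of 0.255. Psmd1, the scaffold of the base, was the lowest non-ATPase in Homo against WT at -0.24 ± 0.10 (adjusted p 0.461). The other class extremes were small: Psma4 at 0.23 ± 0.13, Psma2 at -0.17 ± 0.12, Psmb4 at 0.12 ± 0.13, Psmc5 at -0.20 ± 0.15 and Psmd3 at 0.16 ± 0.12 in Het against WT, and Psmc2 at -0.22 ± 0.11 in Homo against WT. Psmb5, Psmb6 and Psmb7 differed from WT by 0.02 to 0.09 in both FVB genotypes.

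The immunoproteasome genes Psmb8 and Psmb9 varied more between tumors than any constitutive core gene: their within-group SDs were 0.714 and 0.65 in mixed tumors, where the widest core gene had 0.239, and 0.506 and 0.775 in FVB tumors, where it had 0.302. Their levels were also lower, with group means of 2.29 to 3.18 in mixed tumors and 0.44 to 2.19 in FVB tumors. Core and regulatory particle genes averaged between 6 and 9 in mixed tumors and between 5 and 8 in FVB tumors. The spread of Psmb8 and Psmb9 was not compared with genes of like level. Psmb8 and Psmb9 are neighbours of Tap1 and Tap2, which encode the peptide transporter, and Psmb9 shares 5.79% of its exon bases with Tap1 on the opposite strand. Psmb8 shares 14.7% with Gm20496 and Psmb7 11.8% with Nek6, both on the opposite strand, and Psmb5 12.1% with Mir686 on the same strand. In FVB tumors Psmb8 was 2.88, 2.52, 1.44 and 1.91 in WT, 1.16, 1.70, 1.13 and 1.92 in Het, and 1.53, 1.80, 0.77 and 1.59 in Homo. Psmb9 was 2.96, 2.54, 0.85 and 0.83 in WT, 1.25, 0.88, 0.20 and 0.53 in Het, and 0.47, 1.26, 0.01 and 0 in Homo. WT libraries 1 and 2 were high for both genes, and the other WT libraries overlapped Het and Homo. The log2 fold changes were -0.71 ± 0.35 for Psmb8 and -1.08 ± 0.49 for Psmb9 in Het (adjusted p 0.381 and 0.332), and -0.77 ± 0.35 and -1.36 ± 0.49 in Homo (0.490 and 0.359). Without WT libraries 1 and 2, an alternative chosen after seeing the data, they were -0.20 and -0.12 in Het and -0.25 and -0.40 in Homo. Tap1 was 4.4 and 4.12 in those 2 libraries and 3.18 and 2.56 in the other WT libraries. Psmb10 did not follow them, at 0.22 ± 0.14 in Het and 0.14 ± 0.14 in Homo, and the activator Psme2 differed by -0.44 ± 0.20 in Het and -0.28 ± 0.20 in Homo, with Psme1 at -0.20 ± 0.18 and -0.16 ± 0.18.

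In the mixed tumors Psmb8 was 1.73, 2.62 and 3.90 in WT and 2.40, 3.13 and 4.59 in Het, and Psmb9 was 1.46, 2.15 and 3.52 in WT and 1.94, 2.57 and 3.51 in Het. The ranges overlapped throughout, with differences of 0.41 ± 0.34 and 0.31 ± 0.32 (adjusted p 0.568 and 0.650) and -0.06 ± 0.13 for Psmb10. Single libraries moved Psmb8 and Psmb9. Psmb8 differed by 0.20 without Het 5, 0.26 without WT 3 and 0.57 without WT 2. Psmb9 differed by 0.18 without Het 5, 0.20 without WT 4, 0.19 without WT 6 and 0.49 without WT 2. The highest Psmb8 value, in Het 5, went with the highest Tap1, at 6.35, and the highest WT value, in WT 2, with a Tap1 of 4.77. Fewer cells of a type and less RNA per cell cannot be told apart in these bulk samples. The pan-leukocyte gene Ptprc lay between 4.39 and 5.66 in mixed WT and 4.46 and 6.24 in Het, and the T-cell gene Cd3e between -1.0 and 0.93 and between -1.0 and 1.58. The 13 T and NK cell markers, which include the T-cell receptor constant gene Trac, summed to 4.52 to 35.5 CPM in WT and 12.9 to 55.2 CPM in Het, and none was at 0 in every library. In FVB tumors 11 of the 13, including Cd3e and Cd8a, were not listed, and the other two summed to 1.1 to 8.98 CPM; Ptprc lay between 4.90 and 5.87. Neutrophil markers summed to 2.53 to 103 CPM in FVB WT, 0 to 1.19 in Het and 1.8 to 145 in Homo. Of all cell type markers, 1 passed in a tumor comparison: Lrat, a stellate cell gene, fell in FVB Het against WT by 2.50 ± 0.31 on the floored log2 scale (adjusted p 0.0234). That call was lost without WT 2, WT 3, Het 2 or Het 3, where the largest adjusted p was 0.167, and with a replicate block (adjusted p 0.0685). The part of these cells in the result was not tested.

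The ratio of each immune subunit to the constitutive one it replaces is free of library scaling. Per kilobase of principal transcript, Psmb8 was a median of 5.58% of Psmb5 in mixed tumors (1.94% to 17.2%), 4.75% in FVB tumors (2.32% to 9.97%) and 36.3% in Rag1-/- livers (23.4% to 44.5%). Psmb9 was 2.5% of Psmb6 in mixed tumors, 1.4% in the 11 FVB tumors where it was listed above 0, and 12.2% in the livers. Psmb10 went the other way: it was 118% of Psmb7 in mixed tumors and 91.3% in FVB tumors, and 29.2% in the livers. No tumor library reached the lowest liver library for the first 2 ratios, and no liver library reached the lowest tumor library for the last. The livers differ from the tumors in Rag1 genotype, age, virus and tissue, which cannot be told apart. Tissue is uncertain, since the liver labels give liver as the tissue but frozen liver tumor tissue as the source. With all annotated exons as the length, the mean log2 ratio of Psmb10 to Psmb7 was 0.95 in FVB WT in place of -0.23, so which of them is higher there depends on the length used. For Psmb8 to Psmb5 the mean was -4.84 in place of -3.79 in FVB WT, and -2.79 in place of -1.74 with ad-Cre. For Psmb9 to Psmb6 it was -5.39 in place of -5.18 in FVB WT. The percentages above therefore hold for the principal transcript only.

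**Figure D3:**
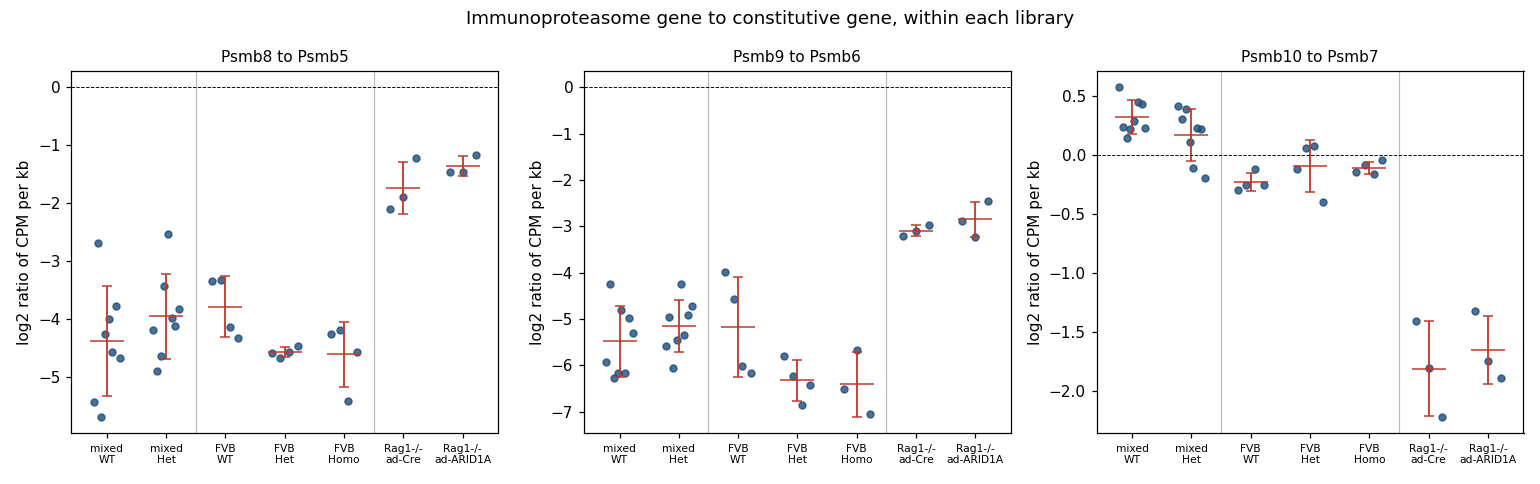
Log2 ratio of CPM per kb of principal transcript (y axis) for Psmb8 to Psmb5, Psmb9 to Psmb6 and Psmb10 to Psmb7 in each library (points) by group, with the group mean and SD in red; the dashed line is a ratio of 1 to 1. The first 2 ratios are higher in all 6 liver libraries than in the tumors, and the third is lower.

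In Rag1-/- livers 26 of 47 members were higher with ad-ARID1A, with a median of 0.01, while 66.3% of all genes were higher with a median of 0.09. With libraries centred on their medians, 16 of 47 members were higher, with a median of -0.09 against -0.01 for all genes. The groups did not overlap for 5 members (Psmg3, Psme2, Psmd5 and Psmb2 higher, Psmc5 lower), against 17.4% of all genes, and Psmd5 is named for this after its values were seen. Psmg3, which assists assembly of the alpha ring, was 2.71, 2.40 and 2.52 with ad-Cre and 2.82, 3.85 and 3.31 with ad-ARID1A. The difference was 0.78 ± 0.26 with an adjusted p of 0.278, and it was 0.52 without the highest library, ad-ARID1A 6. Psmg3 shares 9.68% of its exon bases with Gm26938 on the same strand. Psme2 was 4.0, 3.83 and 3.88 with ad-Cre and 4.13, 4.13 and 4.46 with ad-ARID1A, a difference of 0.34 ± 0.15 (adjusted p 0.390). Psme1 differed by 0.20 ± 0.14.

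The immune subunits were each a little higher with ad-ARID1A, and their ranges overlapped. Psmb8 was 3.41, 3.60 and 3.46 with ad-Cre and 3.54, 3.59 and 4.14 with ad-ARID1A, a difference of 0.27 ± 0.19 (adjusted p 0.614). Psmb9 was 3.27, 3.27 and 3.43 against 3.61, 3.20 and 4.01, a difference of 0.28 ± 0.21 (0.633). The top values of both belong to ad-ARID1A 7, and without it they differed by 0.08 each. Psmb10 differed by 0.17 ± 0.25. The catalytic genes Psmb5, Psmb6 and Psmb7 differed by -0.11 ± 0.22, 0.04 ± 0.09 and 0.01 ± 0.10, and the class extremes were Psma5 at 0.22 ± 0.18, Psma7 at -0.07 ± 0.10, Psmc6 at 0.04 ± 0.12, Psmd13 at 0.10 ± 0.12, Psmd12 at -0.14 ± 0.10, Psme3 at -0.06 ± 0.11 and Psmg2 at -0.22 ± 0.18. Of the T and NK cell markers only Cd4 was listed, and no B cell marker was.

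**Figure D4:**
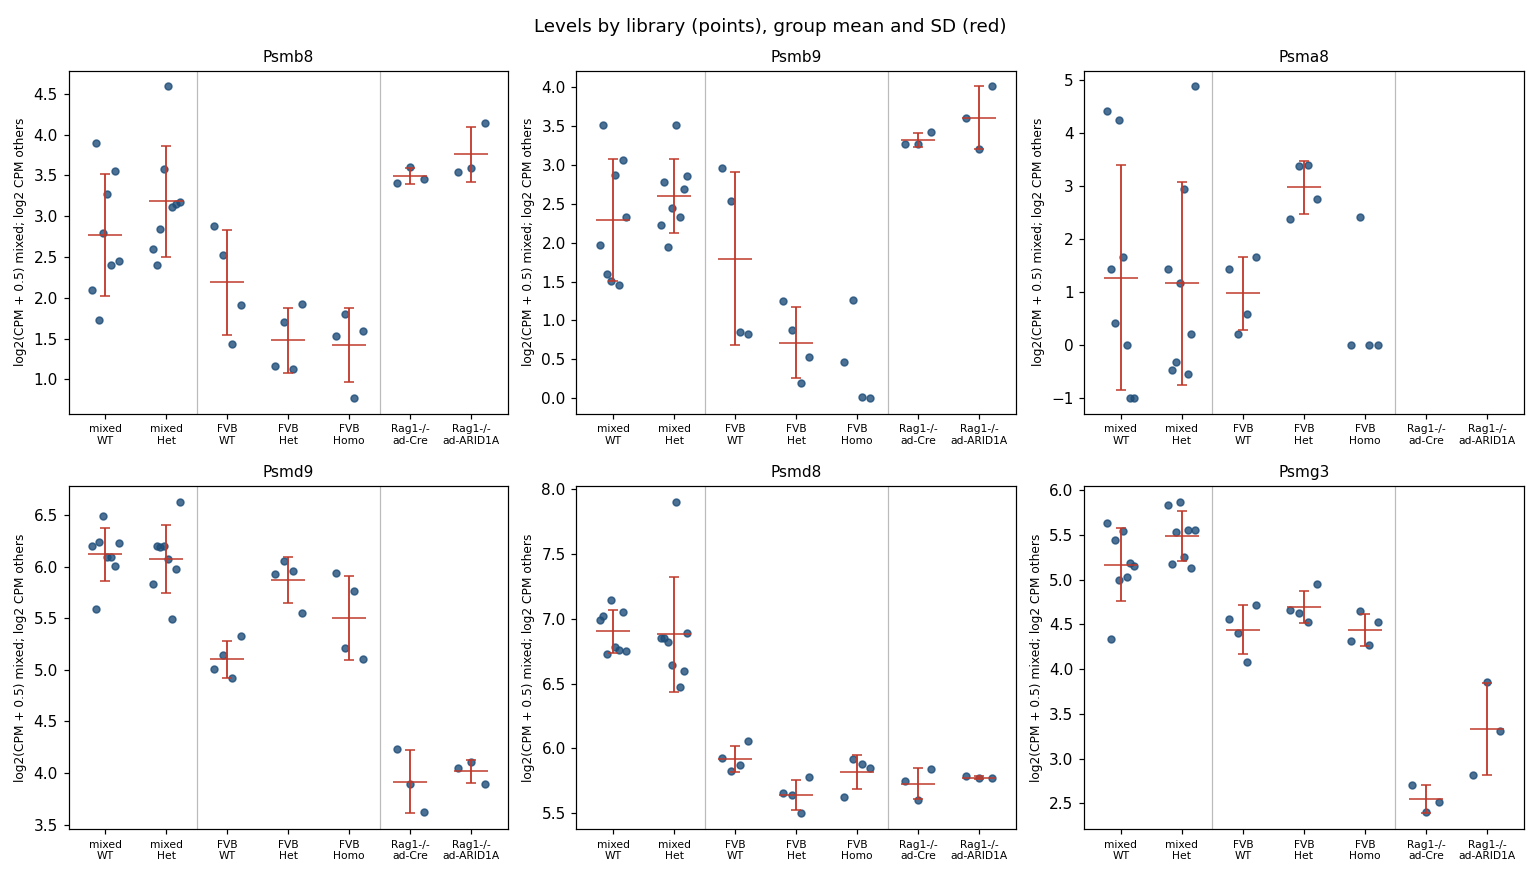
Levels of 6 proteasome genes (y axis: log2(CPM + 0.5) in the mixed table, log2 CPM floored at 0 in the others, normalized separately between the grey lines) in every library (points) by group, with the group mean and SD in red where no floored library is listed at 0. Psmd9 and Psma8 are higher in all 4 FVB Het libraries than in the 4 WT libraries, and Psmb8 and Psmb9 are high in 2 of the 4 FVB WT libraries.

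Genes around the pathway behaved as follows. None of 27 listed pathway partners (ubiquitin, shuttles, the transcription factor Nfe2l1 and others) passed in any comparison. The smallest p values belonged to Usp14, a deubiquitinase of the regulatory particle, at 0.39 ± 0.13 in mixed Het (adjusted p 0.175), to Vcp, the segregase upstream of the proteasome, at -0.36 ± 0.11 in FVB Homo against WT (0.250), and to Nfe2l2, the oxidative stress factor, at 0.64 ± 0.12 with ad-ARID1A (0.0547). None of 10 class I antigen presentation genes passed either; Tap2 had the smallest p in FVB Het and Homo against WT, at -1.32 ± 0.40 (0.168) and -1.48 ± 0.40 (0.227). Of 16 interferon response genes, 1 rose: Irf1, an interferon-induced transcription factor, by 1.06 ± 0.14 with ad-ARID1A (adjusted p 0.0246), at 3.49 to 3.57 with ad-Cre and 4.37 to 4.69 with ad-ARID1A. Leaving out any 1 of the 6 libraries (ad-Cre 1, 3 or 4, or ad-ARID1A 5, 6 or 7) ended this call, with adjusted p of 0.0882 to 0.166 and a difference of 1.0 to 1.17, and so did a fit with no variance trend (0.123). All 16 had a higher mean with ad-ARID1A, with a median of 0.56, where 66.3% of all genes were higher. In mixed Het 13 of 16 were higher, with a median of 0.80, against 56.1% of all genes. The 16 genes summed to 139 to 500 CPM in mixed WT (median 256) and 184 to 1440 CPM in mixed Het (median 286). The highest sum belonged to Het 5, and every other Het library lay within the WT range. The part of Het 5 in the median of 0.80 was not tested. In FVB tumors 2 of 16 were higher in Het against WT (median -0.48, all genes 52.8%), 6 of 16 in Homo against WT (-0.15, 46.7%) and 16 of 16 in Homo against Het (0.23, 41.1%), and these comparisons share libraries.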

How the data were processed

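RNA was extracted with Trizol and miRNeasy and made into libraries with a Nugen protocol, per the labels' protocols. Trim Galore, HISAT2, SAMtools and featureCounts are named in the submitters' processing notes, with builds GRCm38 and mm10; no version or strand setting is stated. The deposited values are log2 values in 3 tables. The mixed-strain table is named RPKM, but its values, read as log2(CPM + 1), sum to 999553 to 999898 per library, and were used as log2(CPM + 0.5) for genes with a mean of at least 0.5 CPM. The FVB and Rag1-/- tables hold the authors' normalized log2 CPM, with 1 CPM or less listed at 0.

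Differences were tested with limma 3.58.1 (R 4.3.3, empirical Bayes with a variance trend), fitted on all genes of a table and called at an adjusted p of 0.05; the 3 FVB groups shared a fit. The fit was checked on simulated data. Levels per kilobase use the principal GENCODE transcript. Named members were the catalytic and immune subunits, Psme1, Psme2, Psma8, all past the threshold, and the highest and lowest of each class, with Psmd2, Psmd5 and Psme3 named outside this rule; of the other lists, those past the threshold or with the smallest p are named for the pathway, class I and interferon lists. Members, lists and classes were chosen with earlier results of these data known. Interval and floor statements cover counting error only. Alternatives changed scaling, filter, pseudocount, variance model and libraries used.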

Additional observations from a re-analysis of the deposited data

Results flagged for a closer look

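In groups of 4 to 8 libraries, 6 of 153 groups of values had 1 library far from the others (Dixon's test); chance would flag about 7.7. In the mixed tumors Psmd8 was 7.90 in Het 5, where the other Het libraries lay between 6.47 and 6.89. In FVB tumors Psma8 was 2.42 in Homo 2 and listed at 0 in the other Homo libraries. Psma4 was 7.10 in Homo 4 against 6.65 to 6.71 in the others. Psmb2 was 5.90 in Het 2 against 5.66 to 5.67, Psmd3 was 6.87 in WT 3 against 7.21 to 7.28, and Psmd1 was 6.96 in Het 1 against 7.13 to 7.15.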

How the results depend on the processing

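No member was called in 4 of the 5 comparisons under any alternative run. In FVB Het against WT 6 members were called with array weights, as were 14.2% of all genes, and none under the other alternatives; the cause was not tested. The median of the members stayed within 1 SD of the library medians except in the livers, where centring each library on its median gave -0.09 in place of 0.01. Without WT replicate 1 or any other single library, no member was called. Of the other genes named, array weights called Arid1a in mixed Het (adjusted p 0.0459) and Tap2 in FVB Het (0.00881).

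Deviations of same-numbered libraries had correlations from -0.20 to 0.28. Libraries of unlike number were not correlated for comparison, so these values cannot show whether the numbers mark pairs. The labels do not say that they do, and the numbers are not taken as pairs. With a replicate block 0 members were called in the 4 tumor comparisons, with medians of 0.15, -0.02, -0.10 and -0.05. Over all genes the block called 75 in mixed Het against WT in place of 28. It called 0 in place of 4 in FVB Het against WT, and 1 in place of 7 in FVB Homo against WT. The block was not run for the livers, because the ad-ARID1A columns carry no replicate number.

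Of the named members, 95 values changed sign, none of them called in either fit. With array weights these were Psmb10 at 0.068 and Psmb2 at 0.016 in mixed Het against WT, Psmb5 at -0.041 and Psmb7 at -0.045 in FVB Het against WT, Psmb7 at -0.048, Psmc6 at 0.032 and Psmd3 at -0.036 in FVB Homo against WT, and Psmb8 at 0.14, Psmb5 at 0.049 and Psmg1 at 0.016 in FVB Homo against Het. With a pseudocount of 0.1 Psma8 was 0.11 in the mixed tumors, and without WT 2 and Het 5 Psmb5 was -0.065. With libraries centred on their medians Psmd5 was 0.001 in FVB Het against WT, Psmc6 was 0.032 in Homo against WT, Psmb5 and Psmg1 were 0.034 and 0.039 in Homo against Het, and Psmb6, Psmb7, Psmc6 and Psmd13 were -0.063, -0.090, -0.067 and -0.007 in the livers. Without FVB WT 1 and 2 Psmc3 was -0.075 in Het, and Psme1 and Psme4 were 0.018 and -0.038 in Homo against WT. The cause was not tested.

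Leaving out each library in turn gave the following ranges. In mixed Het against WT they were -0.11 to 0.009 for Psmb10, -0.058 to 0.066 for Psmb5, -0.00 to 0.087 for Psmb6, -0.15 to 0.034 for Psme2, -0.64 to 0.34 for Psma8, -0.076 to 0.039 for Psmb2, -0.17 to 0.032 for Psmd8 and -0.12 to 0.040 for Psmd9. In FVB Het against WT they were -0.047 to 0.20 for Psmb5, -0.028 to 0.15 for Psmb7, -0.053 to 0.053 for Psmc3, -0.040 to 0.28 for Psme2b and -0.11 to 0.057 for Psmd5. In FVB Homo against WT they were -0.067 to 0.15 for Psmb5, -0.085 to 0.095 for Psmb7, -0.30 to 0.002 for Psme1, -0.12 to 0.033 for Psmc6, -0.069 to 0.12 for Psmd3 and -0.006 to 0.081 for Psme4. In FVB Homo against Het they were -0.18 to 0.16 for Psmb8, -0.17 to 0.013 for Psmb10, -0.14 to 0.090 for Psmb5, -0.057 to 0.070 for Psmb6, -0.10 to 0.20 for Psme1, -0.024 to 0.14 for Psma2, -0.031 to 0.13 for Psmb3, -0.054 to 0.17 for Psmc5 and -0.042 to 0.018 for Psmg1. In the livers they were -0.063 to 0.41 for Psmb10, -0.38 to 0.028 for Psmb5, -0.017 to 0.048 for Psmb7, -0.11 to 0.005 for Psma7, -0.077 to 0.11 for Psmc6, -0.010 to 0.17 for Psmd13 and -0.12 to 0.030 for Psme3.

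Reads were recovered as a depth only, and levels at or below 1 CPM in the FVB and Rag1-/- tables carry no value, which limits Psma8 and Psmb9.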
